A study of Homo sapiens with 6 samples.

Results

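GSE1 peaks over coding exons are regions called for V5-tagged GSE1 on chromatin that touch protein-coding sequence, away from any promoter. They were chosen from the peaks of the DMSO condition as those that share at least 1 bp with a coding sequence (CDS) block of a GENCODE protein-coding gene and lie more than 3 kb from every annotated transcription start site (TSS), on 18 chromosomes (the autosomes other than 7, 8, 9, 12 and 19, and X). Of 21401 DMSO peaks, 9214 lay on these chromosomes, 1143 of those touched CDS, 812 of the 1143 lay within 3 kb of a TSS, and the remaining 331 are described here. The 331 peaks fell in 290 host genes, each peak being given to the gene with most CDS under it.

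The study profiled GSE1 in NB4, a cell line from acute promyelocytic leukaemia, by chromatin immunoprecipitation with an antibody against the V5 tag. The cells that gave both peak lists carried the lentiviral pLEX_307-GSE1 construct with GSE1 transcript variant 2, so the tagged protein came from an added cDNA and not from the endogenous gene. They were kept for 24 h in DMSO (V5 GSE1 DMSO) or in 2 µM of MC2580, which blocks the demethylase LSD1 (V5 GSE1 MC2580), and cells with the empty pLEX_307 vector (V5 EV, untreated) served as the negative control. Each of these 3 V5 ChIP libraries had an input, which makes 6 libraries in all with 1 library per group. The only values of the files were the score of each peak in the DMSO and in the MC2580 list, so the condition was not replicated, no test between DMSO and MC2580 was possible, and the identity of the cells was not checked against marker genes. Peaks of both lists were called against the same V5 EV ChIP as well as their own input, and the read depth is unknown.

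GSE1 is a coiled-coil protein found with LSD1, CoREST and histone deacetylases in a corepressor complex that removes active histone marks. Such complexes are known best from promoters and enhancers, and in myeloid cells LSD1 is brought to chromatin by DNA-binding repressors such as GFI1. Coding exons are short islands in long introns, and a ChIP peak, which is wider than a typical exon, can touch one while its summit lies in the neighbouring intron.

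The sequence under the peaks is shown for members whose centre lay inside CDS, since these are the regions where the coding sequence itself was at the middle of the peak. They are the highest-scoring ones, 4 without and 4 with an MC2580 peak, among those whose window held CDS of the reference transcript and no untranslated exon bases of any protein-coding transcript, which passes over a few stronger members. Each line gives 200 bases around the peak centre of the hg38 genome, read 5′ to 3′ on the strand of the gene, with CDS of the reference transcript (the Ensembl canonical one) in capitals and intron in lower case. The peaks shown in SLC1A4, CRYBG1, HIPK1 and SH3TC1 had no overlapping peak in MC2580.
SLC1A4, chr2:65018023-65018222, plus strand: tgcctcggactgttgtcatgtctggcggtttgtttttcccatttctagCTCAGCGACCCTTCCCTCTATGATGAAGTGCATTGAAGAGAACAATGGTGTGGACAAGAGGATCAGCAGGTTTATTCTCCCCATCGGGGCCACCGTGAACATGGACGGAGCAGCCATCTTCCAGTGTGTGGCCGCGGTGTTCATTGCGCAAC
CRYBG1, chr6:106520269-106520468, plus strand: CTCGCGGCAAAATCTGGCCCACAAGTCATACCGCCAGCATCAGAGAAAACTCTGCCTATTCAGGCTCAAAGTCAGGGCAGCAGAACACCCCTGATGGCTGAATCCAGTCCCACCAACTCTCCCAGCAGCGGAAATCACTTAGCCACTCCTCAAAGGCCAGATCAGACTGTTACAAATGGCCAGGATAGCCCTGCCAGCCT
HIPK1, chr1:113940663-113940862, plus strand: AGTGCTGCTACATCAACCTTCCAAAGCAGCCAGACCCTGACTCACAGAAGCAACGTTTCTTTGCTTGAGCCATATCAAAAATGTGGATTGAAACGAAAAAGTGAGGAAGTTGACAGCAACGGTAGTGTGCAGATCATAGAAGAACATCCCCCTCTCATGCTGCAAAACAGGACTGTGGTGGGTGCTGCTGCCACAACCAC
SH3TC1, chr4:8218237-8218436, plus strand: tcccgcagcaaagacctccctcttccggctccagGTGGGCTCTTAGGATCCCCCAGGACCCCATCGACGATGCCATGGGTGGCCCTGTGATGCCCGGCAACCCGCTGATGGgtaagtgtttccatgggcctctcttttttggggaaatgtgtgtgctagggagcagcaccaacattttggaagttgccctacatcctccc
The peaks in RIN2, WBP1L, ANTXRL and SERTAD2 overlapped an MC2580 peak.
RIN2, chr20:19975190-19975389, plus strand: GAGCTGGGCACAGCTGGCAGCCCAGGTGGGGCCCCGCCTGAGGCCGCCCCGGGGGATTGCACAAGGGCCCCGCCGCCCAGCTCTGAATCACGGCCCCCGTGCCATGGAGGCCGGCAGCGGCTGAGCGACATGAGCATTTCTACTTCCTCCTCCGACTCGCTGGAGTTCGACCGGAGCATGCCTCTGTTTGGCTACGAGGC
WBP1L, chr10:102812636-102812835, plus strand: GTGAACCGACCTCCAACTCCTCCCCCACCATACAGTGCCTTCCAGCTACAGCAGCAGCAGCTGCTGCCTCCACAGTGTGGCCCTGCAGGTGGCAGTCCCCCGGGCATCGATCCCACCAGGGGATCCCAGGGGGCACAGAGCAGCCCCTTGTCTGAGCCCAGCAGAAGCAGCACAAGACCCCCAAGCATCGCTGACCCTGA
ANTXRL, chr10:46329691-46329890, plus strand: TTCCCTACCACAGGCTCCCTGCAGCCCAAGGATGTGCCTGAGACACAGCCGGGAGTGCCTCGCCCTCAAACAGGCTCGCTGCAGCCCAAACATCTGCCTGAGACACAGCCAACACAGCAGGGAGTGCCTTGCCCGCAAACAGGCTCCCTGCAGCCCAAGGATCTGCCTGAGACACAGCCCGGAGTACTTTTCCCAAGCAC
SERTAD2, chr2:64636621-64636820, minus strand: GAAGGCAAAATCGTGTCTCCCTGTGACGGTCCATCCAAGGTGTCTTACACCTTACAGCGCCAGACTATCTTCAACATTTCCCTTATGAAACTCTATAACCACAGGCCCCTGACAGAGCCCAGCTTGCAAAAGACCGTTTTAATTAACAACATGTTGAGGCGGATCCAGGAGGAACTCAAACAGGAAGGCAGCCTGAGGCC
All 200 bases were coding in 6 of the 8 windows, 152 in SLC1A4 and 77 in SH3TC1, where the lower-case letters show the intron on one or both sides of the exon. G+C content ran from 48.0% in HIPK1 to 69.0% in RIN2, and the number of CpG dinucleotides from 3 to 15 in the same genes.

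A peak score is −10·log10 of the peak caller's p-value, so the calling limit of 1e-05 corresponds to 50, and the score grows with sequencing depth as well as with enrichment. The 331 coding-exon peaks had a median score of 89.41 (95% interval 83.12 to 99.59) and a median width of 974 bp (950 to 1009), with scores from 51.59 to 3100. Intronic peaks were 2204 peaks on the same chromosomes that overlap a protein-coding gene but no exon of any protein-coding gene. They lay as far from a TSS, with a median score of 89.61 (86.62 to 92.82) and a median width of 954 bp (944 to 963). The scores of the coding-exon peaks were thus within the interval of the intronic ones, and 44.4% of the former against 43.8% of the latter scored at least 100. All intervals given here cover counting error over peaks only and say nothing of the spread between libraries.

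A peak that overlapped an MC2580 peak by at least 1 bp is called overlapped below. Of the 331 coding-exon peaks, 86 were overlapped and 245 were not, a share of 26.0% (95% Wilson interval 21.6 to 31.0), beside 25.4% of the 9214 DMSO peaks on the same chromosomes. The share of coding-exon peaks was therefore near that of all peaks. Among intronic peaks 20.6% (19.01 to 22.38) were overlapped, among the 3552 peaks within 3 kb of a TSS 23.0% (21.6 to 24.4), and among the 2348 peaks outside every annotated gene 32.9% (31.0 to 34.8). By the same rule the MC2580 list held 139 coding-exon peaks, 0.420 times the DMSO number, and all MC2580 peaks on these chromosomes were 3976, 0.432 times the DMSO number. Of the 139, 71 had no DMSO peak under them, with a median score of 58.54 and a maximum of 192.03. The matching share and scores over all MC2580 peaks on these chromosomes were not computed, so these values have no background.

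The overlapped peaks had the higher DMSO scores. Their median was 214.25 (153.19 to 258.59) against 75.07 (70.64 to 83.12) for the peaks without overlap, although the ranges ran from 51.59 to 3100 and from 51.83 to 913.93 and so covered each other. When the members were split into groups of equal size at scores of 70.07 and 121.24, 5.41% (2.50 to 11.3) of the lower, 12.7% (7.73 to 20.2) of the middle and 60.0% (50.7 to 68.7) of the upper group were overlapped. Intronic peaks in the same score ranges gave 2.36% (1.48 to 3.75), 8.45% (6.61 to 10.8) and 48.2% (44.7 to 51.6), each value lower than that of the coding-exon peaks and each interval overlapping theirs. All DMSO peaks on the same chromosomes gave 4.93%, 12.2% and 52.3%, each within the interval of the coding-exon peaks. Peaks outside every annotated gene gave 7.98%, 18.2% and 60.2%, each value above that of the coding-exon peaks. Of 46 coding-exon peaks that scored at least 250, 34 were overlapped, and the share of all peaks at that limit was not computed.

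**Figure D1:**
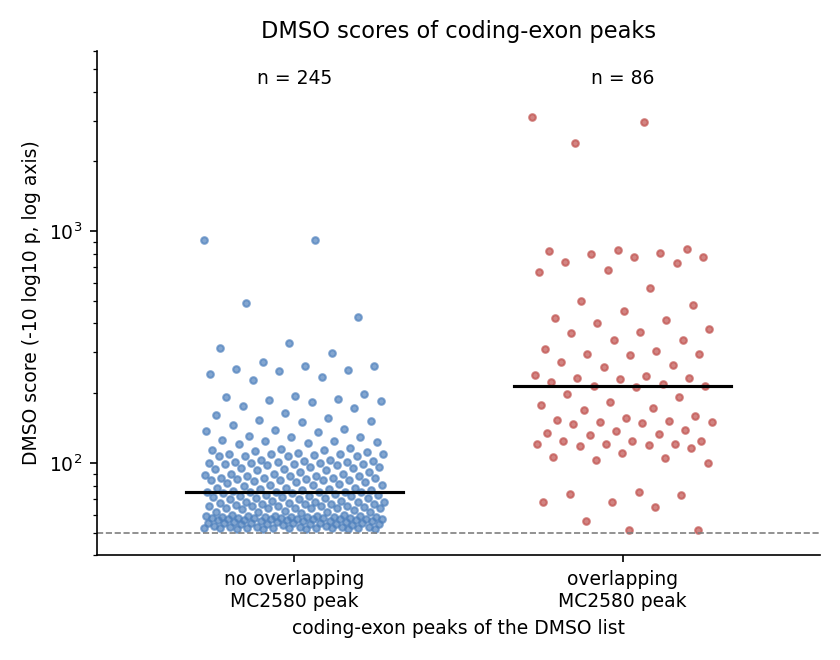
DMSO score (vertical log axis, −10·log10 p) of each coding-exon peak, split by whether an MC2580 peak overlapped it; points are spread sideways for legibility, black bars are medians and the dashed line is the calling limit of 50. The 86 overlapped peaks have a median of 214.25 and the 245 others one of 75.07, and the ranges of both overlap.

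**Figure D2:**
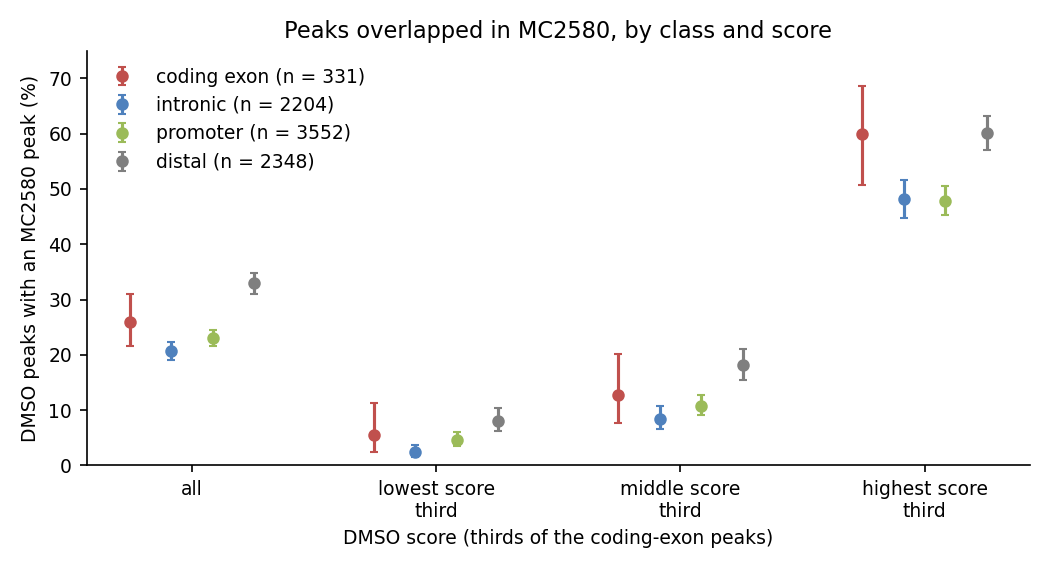
Share of DMSO peaks with an overlapping MC2580 peak (vertical axis, %) for coding-exon, intronic, promoter and distal peaks, over all scores and in the score ranges set by the coding-exon peaks (limits 70.07 and 121.24); points are shares and bars 95% Wilson intervals. In every class the share rises with the score, and in the upper range it is 60.0% for coding-exon, 48.2% for intronic and 60.2% for distal peaks.

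The overlapped members included the highest scores of the set. The first was in ZNF248, a C2H2 zinc finger gene on chromosome 10, where a peak of 6488 bp at chr10:37771539-37778026 scored 3100 in DMSO and 3100 in MC2580, a value that 116 peaks of the DMSO list and 86 of the MC2580 list share exactly, so that equal values here do not mean equal signal. It touched only 36 bp of CDS, from a transcript other than the reference one. The peak at chr6:31558159-31561079 lay over the last coding exon and the stop codon of NFKBIL1, an I-kappa-B-like gene of the major histocompatibility complex, with its centre beyond the end of the reference transcript, and scored 2966.10 in DMSO and 669.33 in MC2580. NFAM1, an immune receptor with an ITAM motif that signals to NFAT, had a peak over coding exon 4 of 6 with 2398.26 in DMSO and 447.05 in MC2580. Both were far lower in MC2580 while still well above the limit of 50.

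The next overlapped members lay within a narrow band of DMSO scores. SH3PXD2A, which encodes a scaffold of invadopodia, had 838.67 in DMSO and 130.67 in MC2580 over coding exon 11 of 15. CD58, the ligand of the T cell receptor CD2, had 830.02 and 116.70, with the 7 coding bases of its last coding exon under the peak. TBC1D22B, which has a Rab GTPase-activating domain, had 824.65 and 352.83. In each of these genes the MC2580 score was less than the DMSO score, by a different factor. ZNF831, a zinc finger gene, had 802.44 and 294.15 over its last coding exon, 45813 bp from the nearest TSS. LASP1, which encodes an actin-binding LIM and SH3 protein, had 799.60 and 349.35. BMERB1 had 776.82 and 130.53, and MAEA, a subunit of the CTLH ubiquitin ligase, had 774.74 in DMSO and only 60.01 in MC2580 over coding exon 7 of 9.

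Among the 245 members without an MC2580 peak, those in SLC1A4 and CRYBG1 stood apart by their score. SLC1A4, a transporter of neutral amino acids, had a peak of 1668 bp at chr2:65017289-65018956 with a DMSO score of 913.93 and 330 bp of CDS, centred in coding exon 6 of 8. CRYBG1, whose product has beta/gamma-crystallin domains, had a peak of 2363 bp at chr6:106519187-106521549 with a score of 912.90, of which 2267 bp were CDS, the most of any member, in an exon of 2323 coding bases. A second CRYBG1 peak over the preceding coding exon scored 101.65, lay wholly in CDS and was also not overlapped. Only ZNF248, NFKBIL1 and NFAM1 scored higher than these 2 genes in DMSO, and each of those 3 was overlapped.

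The other high-scoring members without overlap ranged from 492.04 to 234.24. CTCFL, the testis paralogue of the insulator protein CTCF, had 492.04 over coding exon 9 of 10. TAGAP, a GTPase-activating protein of activated T cells, had 426.26. PCNX2 had 329.78 and ASXL1, a Polycomb-associated gene that is often mutated in myeloid neoplasms, had 314.99. In these last 2 genes the coding bases under the peak, 24 and 6, came from a transcript other than the reference one. PIK3AP1, the adaptor that links B cell and Toll-like receptors to phosphoinositide 3-kinase, had 297.74 and 2 further members at 161.36 and 87.65, none overlapped. KIRREL3, a nephrin-like adhesion molecule, had 272.96, and MANBAL had 262.00. SETD2, a histone methyltransferase of transcribed gene bodies, had 261.04 over its last coding exon and stop codon. COL21A1, a collagen gene, had 252.92 and BAG3, a co-chaperone, 248.83. ZDHHC14, a palmitoyltransferase, had 241.76 and GRM5, a metabotropic glutamate receptor, had 234.24. All of these were peaks well above the calling limit in DMSO that had no counterpart in the MC2580 list, which does not show that no signal was left there.

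Scores could be compared within a region for 80 members that paired one-to-one with an MC2580 peak. The MC2580 score was the lower one in 69 of the 80 pairs (86.2%, 77.0 to 92.1), and the median ratio of MC2580 to DMSO was 0.462 (0.367 to 0.538). For 435 one-to-one pairs of intronic peaks the median ratio was 0.383 (0.353 to 0.407), an interval that overlaps that of the coding-exon pairs. Pairs exist only where MC2580 passed the calling limit, so the weakest MC2580 signals are missing from this ratio, and it also moves with the depth of each library.

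The pairs with the lowest ratios were MAEA (0.0775), CD58 (0.141), SH3PXD2A (0.156), CAMKMT (0.164) and RIN2 (0.167). CAMKMT, a calmodulin methyltransferase and the member farthest from a TSS at 76514 bp, had 566.28 in DMSO and 92.71 in MC2580. RIN2, which encodes an exchange factor for Rab GTPases, had 311.88 and 52.13, with 1033 of its 1070 bp in CDS. At the other end the MC2580 score was the higher one in PRPF6 (1.49), TM9SF4 (1.38), FAM193A (1.35) and SH3TC1 (1.26). PRPF6, a component of the spliceosome, went from 67.73 in DMSO to 100.93 in MC2580, and TM9SF4, a transmembrane protein of intracellular vesicles, from 64.51 to 88.88. The genes with the lowest ratios scored 311.88 or more in DMSO, and these 4 genes scored 67.94 or less. The DMSO score is the denominator of the ratio, and every paired MC2580 score lies above the calling limit. A peak just above that limit in DMSO therefore could not give a low ratio. Whether the change in score depended on the DMSO score cannot be read from this contrast.

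**Figure D3:**
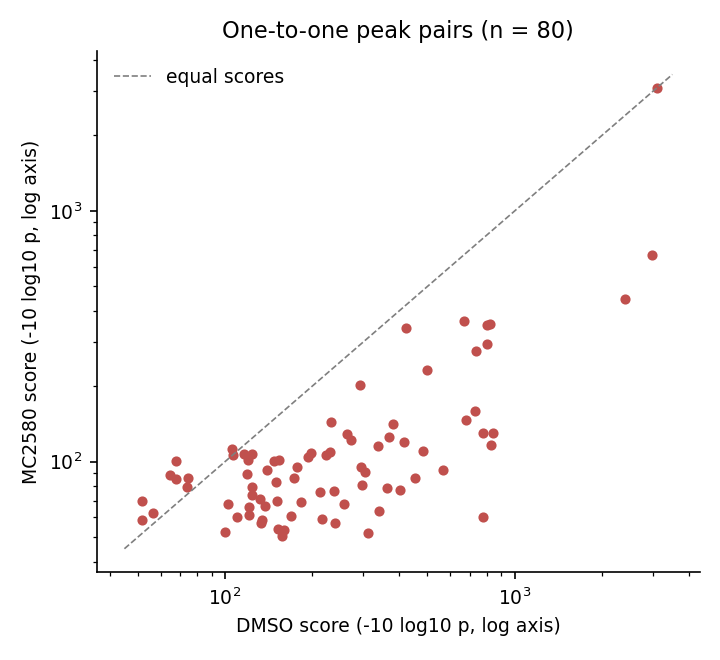
MC2580 score against DMSO score (both log axes, −10·log10 p) for the 80 one-to-one pairs of a coding-exon peak and an MC2580 peak; each point is a pair and the dashed line marks equal scores. In 69 pairs the point lies below the line, and the pair at 3100 on both axes is ZNF248.

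Most members touched an exon without being centred on it. The peak centre lay in CDS in 56 of the 331 peaks (16.9%, 13.3 to 21.3), outside protein-coding gene exons in 229 (69.2%, 64.0 to 73.9) and in non-coding exon sequence in 46 (13.9%, 10.6 to 18.0). The 229 are centred in introns or, as in NFKBIL1, beyond the end of the host gene. The median peak held 122 bp of CDS (111 to 134), or 11.7% of its width (10.5 to 13.7), and 20 members had CDS over more than 50% of their width, while 34 held fewer than 50 bp. On the reference transcript 279 members touched 1 coding exon, 29 touched more, with a maximum of 3, and 23 touched CDS of another transcript only. Peaks centred in CDS were overlapped in 12 of 56 cases (21.4%, 12.7 to 33.8) and had a median score of 74.71 (62.95 to 98.32). Peaks centred outside protein-coding gene exons were overlapped in 63 of 229 (27.5%, 22.1 to 33.6). Where an MC2580 peak was present, it reached CDS itself in 65 of 86 cases.

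Over internal, last and first coding exons the shares of peaks lay near those of the coding bases, and over single coding exons, with 2 members, the share was lower. A peak counts once and a base counts once here, so exons with more coding bases weigh more among the bases and these shares are not on the same footing. On the reference transcripts 231 members lay over an internal coding exon (69.8%, 64.6 to 74.5), 64 over the last (19.3%, 15.4 to 23.9), 11 over the first (3.32%, 1.87 to 5.85) and 2 over the single coding exon of RHOH and SERTAD2 (0.604%, 0.166 to 2.18). These shares are of all 331 members, including the 23 that touched another transcript only. Of the 11.6 Mb of CDS on these chromosomes that lie more than 3 kb from any TSS, 74.7% were in internal, 18.5% in last, 2.98% in first and 3.88% in single coding exons. A stop codon was under 50 members and a start codon under 14. The overlapped share was 26.0% (20.7 to 32.0) over internal and 26.6% (17.3 to 38.5) over last coding exons. RHOH, a GTPase-deficient small G protein of blood cells, had 362.85 in DMSO and 78.92 in MC2580, and SERTAD2, a transcriptional coregulator, had 198.73 and 108.72.

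Measured from the start to the end of the reference transcript, which contained the centre of 321 members, the median position was 76.7% (73.9 to 79.5). The final stretch from 70 to 100% held 188 members (58.6%, 53.1 to 63.8) against 52.4% of the eligible coding bases, the stretch from 30 to 70% held 101 (31.5%, 26.6 to 36.7) against 36.6%, and the first held 32 (9.97%, 7.15 to 13.7) against 11.0%. The share of the final stretch was above that of the coding bases, and for the middle stretch the share of the bases was just within the interval of the peaks. Peaks were placed by their centre, which mostly lay outside CDS, and the whole peak had to lie over 3 kb from a TSS. A coding base had to do so only by itself, so peaks and bases are not on the same footing and no excess can be read from them. Exons of at least 1000 coding bases made up 16.6% of the eligible coding bases and held 18 members (5.44%). Here a peak counts once and a base counts once, and long exons hold more bases per exon, so the 2 shares are not on the same footing. MUC4, a membrane mucin, was among these 18, with a peak wholly inside a coding exon of 12708 bp that scored 124.32 in DMSO and 79.38 in MC2580.

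**Figure D4:**
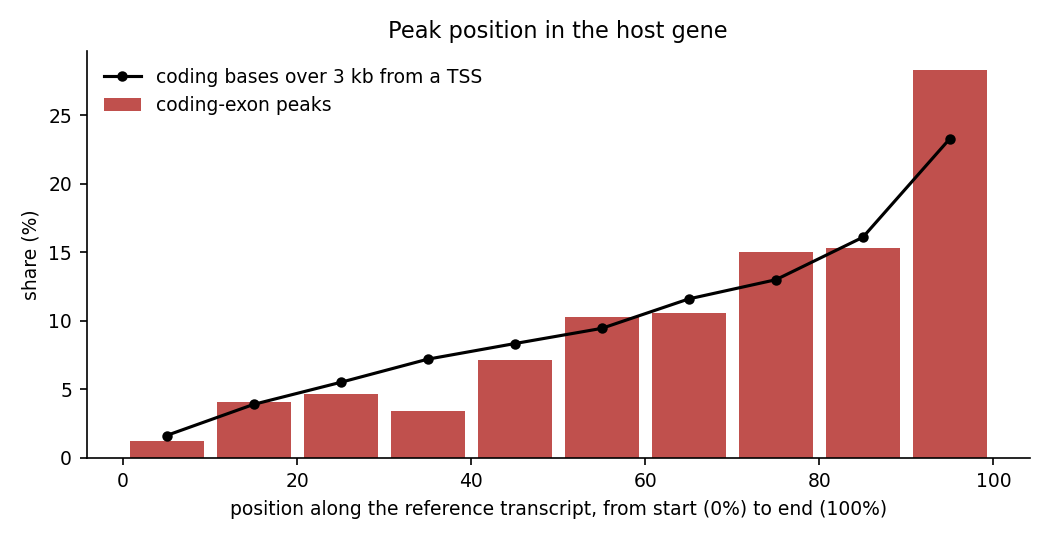
Share (vertical axis, %) of 321 coding-exon peaks in steps of 10% of the reference transcript from its start (0%) to its end (100%), as bars, with the share of coding bases over 3 kb from a TSS as points joined by a line. Both rise towards the end of the gene, where the last step holds 28.3% of the peaks and 23.3% of the bases.

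The distance to the nearest TSS ran from 3005 to 76514 bp with a median of 7489 (6900 to 8402). Just inside the limit of 3 kb were peaks in MMEL1 at 3005 bp with a score of 122.88, in ADAMTS7 at 3034 bp with 58.46 and in DQX1 at 3044 bp with 51.83. Just outside were CDS peaks in FAM193A at 2989 bp with 87.42, in CPEB3 at 2969 bp with 73.12 and in VNN2 at 2943 bp with 122.70. None of these 6 peaks was overlapped. Overlapped members lay at a median of 8434 bp (7368 to 10325) and the others at 7000 bp (6515 to 8315).

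The host genes were 290 of 10537 protein-coding genes with eligible CDS on these chromosomes (2.75%). Their median length was 59.5 kb (49.2 to 71.9) against 47.2 kb (46.0 to 48.8) for all of those genes. At least 1 further DMSO peak lay within the gene in 159 host genes (54.8%), with no matching share for all of those genes to set beside it. A DMSO peak lay within 3 kb of a TSS of the gene itself in 107 host genes (36.9%, 31.5 to 42.6), and in 13.5% (12.9 to 14.2) of the 10537 genes. In MC2580 the same held for 58 host genes (20.0%, 15.8 to 25.0) and 5.05% (4.65 to 5.48) of all. A promoter peak was thus more frequent among host genes than among all genes in both lists, without a test and with dense regions included. Of the 78 host genes with an overlapped member 35 had a DMSO promoter peak (44.9%, 34.3 to 55.9), and of the other 212, 72 (34.0%, 27.9 to 40.6).

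Members were unevenly spread over the genome. Chromosomes 10, 4, 2 and 20 held 53, 47, 44 and 37 of them, 54.7% in all, while they held 40.7% of the 9214 DMSO peaks on the 18 chromosomes used. These 4 were picked as the chromosomes with most members, which by itself favours the higher share. Coding bases per chromosome were not set beside it. Bins of 1 Mb with at least 40 peaks in the DMSO and MC2580 lists together, of which the genome had 118 when overlapping peaks were counted once, held 68 members (20.5%) but 12.7% of the 9214 DMSO peaks on the 18 chromosomes used. In these dense bins 29 of 68 members were overlapped (42.6%, 31.6 to 54.5), and outside them 57 of 263 (21.7%, 17.1 to 27.0). Intronic peaks gave 26.5% (21.6 to 32.1) in and 19.8% (18.1 to 21.7) outside dense bins, so the intervals of coding-exon and intronic peaks overlapped both in and outside dense bins. MC2580 peaks without a DMSO peak count towards a dense bin, so the bins were not chosen independently of the list used for the overlap. The overlapped share of all DMSO peaks in and outside the bins was not computed. The part of these dense bins in the overlap was not tested.

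Bins with many members were on the short arm of chromosome 4 and near the centromere of chromosome 10. The bin chr4:2000001-3000000 held 9 members in ZFYVE28, RNF4, FAM193A and NOP14, 3 of them overlapped. The bin chr10:37000001-38000000 held 7, in ANKRD30A, ZNF248 and ZNF25, with 5 overlapped. Both were dense bins.

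In 27 host genes there were 2 or more members, and these genes held 68 of the 331 peaks. ANKRD30A, an ankyrin repeat gene, led with 5 members, of which 4 were overlapped, and the gene held 20 DMSO and 26 MC2580 peaks in all. Its peak over coding exon 7 had 216.00 in DMSO and 255.42 in MC2580, and 2 neighbouring members with 119.99 and 149.00 in DMSO shared 1 MC2580 peak of 236.19. The gene has close paralogues, and its peaks rest on the reads that matched 1 place only. TPTE, a phosphatase-like gene on chromosome 21, had 4 members with 2 overlapped. Its DMSO scores ran from 56.90 to 123.95 and the MC2580 scores were 73.46 and 112.47.

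Another 7 genes held 3 members each and differed in how many were overlapped. In ANTXRL, an anthrax toxin receptor-like gene, all 3 were, with DMSO scores of 139.19, 183.37 and 219.42 and MC2580 scores of 92.96, 69.34 and 98.60. In ZFYVE28, a FYVE domain gene, 2 were, at 124.28 and 120.67 in DMSO and 107.85 and 61.14 in MC2580. In HTT, the huntingtin gene, the strongest of 3 members had 153.19 in DMSO and 101.50 in MC2580, and the others had 58.45 and 76.58 with no overlap. SH3TC1 and FAM193A had 1 overlapped member each. In CDH23, the cadherin of inner ear hair cells, none of the 3 was overlapped, and their DMSO scores were 61.42, 84.56 and 86.45. PIK3AP1 is described above.

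Among host genes with roles in chromatin, blood cells and leukaemia, 5 lists of such genes gave 14 hosts with 15 members, 14 of them without overlap, beside 245 of 331 among all members, and their median score was 107.42. The share of genes that hosted a member was above the 2.75% of all genes in each list, on only 2 to 4 hosts per list. The lists were chosen with earlier results of these data known and gene length was not taken into account, so these shares cannot show an excess. Of 20 LSD1 and CoREST partners with eligible CDS, 2 hosted a member (10.0%, 2.79 to 30.1, against 2.75% of all genes). MTA3, a subunit of the NuRD deacetylase complex, had 420.43 in DMSO and 340.79 in MC2580 over its last coding exon, a ratio of 0.811. GFI1, the repressor that recruits LSD1, had a weak peak of 61.47 over its last coding exon with no overlap. No member lay in GSE1 itself. Of 40 chromatin and DNA methylation enzymes, 3 hosted a member (7.50%, 2.58 to 19.9), namely ASXL1 and SETD2 with the values above and DNMT3A, a de novo DNA methyltransferase, with 51.91 over coding exon 20 of 22. None of the 3 was overlapped.

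Of 41 haematopoietic transcription factors, ETS1 and SPI1 hosted a member (4.88%, 1.35 to 16.1). ETS1 had 108.93 over coding exon 4 of 9, and SPI1, which encodes the myeloid master regulator PU.1, had 63.83 over coding exon 3 of 5. Neither was overlapped. Of 47 myeloid and immune effector genes, 4 hosted a member (8.51%, 3.36 to 19.9), with IL6R, the interleukin-6 receptor, at 107.42, SIRPA, the inhibitory receptor for CD47, at 75.35, TGM2, the tissue transglutaminase, at 70.07 and IL17RA, an interleukin-17 receptor chain, at 52.31, and with no overlap. Of 26 signalling genes of leukaemia, 3 hosted 4 members (11.5%, 4.00 to 29.0). MERTK, a receptor tyrosine kinase that binds apoptotic cells, had 254.84 and 175.95 over coding exons 11 and 13 of 19. FLT3, the receptor kinase of blood progenitors, had 151.54 over coding exon 10 of 24, and CBL, a ubiquitin ligase for such receptors, had 93.29 over CDS of a transcript other than the reference one. None of these 4 was overlapped.

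Gene families were counted in the same way, beside the 2.75% of all genes. Their overlapped counts rest on few members and stand beside 86 of 331 among all members, so they show no trait of a family. C2H2 zinc finger genes hosted a member in 7 of 207 cases (3.38%, 1.65 to 6.81), with 3 of 7 members overlapped, in ZNF248, ZNF831 and ZNF341. Solute carriers hosted 6 of 233 (2.58%, 1.19 to 5.50), with none overlapped. Centrosome and myosin genes hosted 5 of 63 (7.94%, 3.44 to 17.3) with 6 members, 1 of them overlapped, a peak in MYO7A, an unconventional myosin, with 223.81 in DMSO and 106.42 in MC2580. Collagens hosted 2 of 32 and ADAM and ADAMTS genes 2 of 27, with none overlapped, and mucins 1 of 11. None of 48 protocadherin genes hosted a member, with a Wilson interval that reaches up to 7.41%.

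The centre of the peaks was richer in G+C than their flanks. The 200 bp at the centre had a median of 52.5% G+C (51.0 to 53.5), against 47.8% (46.8 to 49.2) for the mean of windows 2 kb to either side, and the median difference within a peak was 4.25 percentage points (3.25 to 5.50). The centre was the richer one in 230 of 331 members (69.5%). Intronic peaks had flanks of 46.0% (45.8 to 46.5) and a difference of 3.75 points (3.25 to 4.25), which lay within the interval of the coding-exon peaks. Members centred in CDS had the larger difference of 9.25 points (5.75 to 11.5). Overlapped members and the others differed little, at 5.12 (2.25 to 8.25) and 4.25 (3.00 to 5.50) points. Windows with at least 50% G+C and a ratio of observed to expected CpG of at least 0.6 were found in 16 members (4.83%), against 1.91% of intronic and 6.97% of all DMSO peaks on these chromosomes.

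**Figure D5:**
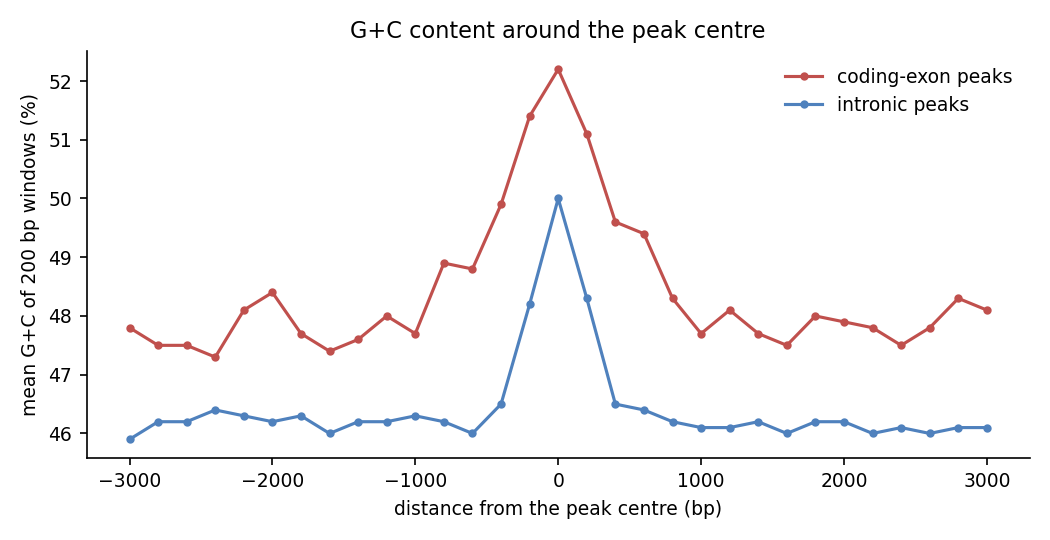
Mean G+C content (vertical axis, %, not starting at 0) of 200 bp windows against the distance from the peak centre (horizontal axis, bp) for 331 coding-exon and 2204 intronic peaks. Both rise at the centre, and the coding-exon peaks lie higher at every distance shown.

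Words that resemble binding sites of myeloid transcription factors were searched in the same windows on both strands. The word GAGGAAGT (PU.1) was found in 10 of 331 centre windows (3.02%, 1.65 to 5.47) and in 2.11% of the flanks, and TGTGGTTT (RUNX) in 18 (5.44%, 3.47 to 8.43) and 1.51%. The AP-1 word, TGA and TCA with any 1 base between, was in 35 (10.6%, 7.70 to 14.4) and 5.14%, TTGCNNAA (CEBP) in 53 (16.0%, 12.5 to 20.3) and 7.70%, and the GATA word AGATAA in 28 (8.46%, 5.92 to 11.95) and 9.52%. The RUNX, AP-1 and CEBP words were thus more frequent at the centre than in the flanks by more than their intervals, and the PU.1 and GATA words were not. Over all 9214 DMSO peaks on these chromosomes the centre shares were 4.27% for PU.1, 7.36% for RUNX, 12.03% for AP-1, 17.5% for CEBP and 11.0% for GATA, each within the interval of the coding-exon peaks. Intronic peaks had the RUNX word in 9.17% (8.03 to 10.4) of centre windows, above the interval of the coding-exon peaks although both intervals overlapped, and the PU.1 word in 4.81%, the AP-1 word in 13.3%, the CEBP word in 17.9% and the GATA word in 11.93%, within it. Words of these lengths can share bases with one another, and 112 members (33.8%) held at least 1 of the 5.

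Among the windows printed above, those of HIPK1, a homeodomain-interacting kinase, and RIN2 held both the PU.1 and the AP-1 word within coding sequence, and those of SLC1A4, RIN2 and SERTAD2 held the CEBP word. NFAM1 at 2398.26 was the highest-scoring of the 10 members with the PU.1 word, and TBC1D22B at 824.65 the highest of the 18 with the RUNX word. Overlapped members held the PU.1 word in 5 of 86 windows (5.81%, 2.51 to 12.9) and the others in 5 of 245 (2.04%, 0.875 to 4.69), and the RUNX word in 5.81% (2.51 to 12.9) and 5.31% (3.13 to 8.87). The intervals overlapped for both words. A word is a match of letters and no evidence of a bound factor.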

How the data were processed

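Chromatin of NB4 cells was immunoprecipitated with a V5 antibody in 3 libraries (V5 EV, V5 GSE1 DMSO, V5 GSE1 MC2580), each with an input. The authors aligned reads to hg38 with Bowtie (4.8.2 in the submitters' processing notes), kept reads with a unique match, and called peaks with MACS at p of 1e-05 against the respective input and the V5 EV ChIP. How both backgrounds were combined is not given in the sources used here. The deposited files are 2 peak lists with a score per peak, which is −10·log10 p. Exactly 3100 stands for 116 DMSO and 86 MC2580 peaks, and 4 and 3 peaks lie above it. The lists were assigned to the conditions by their names. Depth is unknown, and no reads or signal tracks were used here.

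Peaks were joined to GENCODE version 44 with Python 3.11.15, pandas 2.3.3 and pysam 0.24.0. The members, gene lists and words were chosen with earlier results of these data known. Shares have 95% Wilson intervals (statsmodels 0.14.6) and medians 95% order-statistic intervals. With 1 library per condition no p-value was computed. Selection and overlap were tested on 2000 simulated peaks with known answers and evenly spaced genes. The peaks included ones planted outside CDS or without overlap, and 100% were classified correctly for each. Genes were named by rule: the 15 highest-scoring members without and the 10 with an overlapping MC2580 peak, up to 10 hosts with most members, hosts in the gene lists, the 3 peaks on either side of the 3 kb limit, GSE1, and the 5 highest and 5 lowest score ratios; 1 gene that this rule names is not reported here. Other genes named (HIPK1, SERTAD2, RHOH, MUC4, WBP1L, those of the dense bins) were chosen by the windows shown or after their values were seen. Alternatives changed the TSS set and distance, CDS set, overlap, score, width, dense bins, windows and flanks.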

Additional observations from a re-analysis of the deposited data

How the results depend on the processing

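No paired analysis was possible because each condition had 1 library and no replicate numbers. Of 40 alternatives, 30 kept the value within 1.5 times (for the number of peaks) or within its 95% interval. The number of coding-exon peaks went from 331 to 147 with a score of at least 100. The overlapped share went from 26.0% to 52.4% with a DMSO score of at least 100 and to 21.4% with the peak centre in CDS, and it ran from 21.7% without dense bins to 28.7% with an MC2580 peak within 1 kb over the others, including 2 chosen after seeing the data, without chromosome 4 (24.3%) and without chromosome 10 (26.3%). With the centre in CDS the median score went from 89.41 to 74.71 and the share over the last coding exon from 19.3% to 28.6%. In windows of 400 bp the word shares rose to 6.65% (PU.1), 9.37% (RUNX), 16.3% (AP-1), 27.8% (CEBP) and 15.1% (GATA), windows that hold more bases by construction. The unknown depth and the single library per condition limit every statement on DMSO against MC2580: a peak missing from the MC2580 list may lie just under the calling limit, and 9 members without overlap had an MC2580 peak within 1 kb.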
